A study of Mus musculus with 2 samples.

Results

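Guanylate-binding proteins (GBPs) were described here as the 8 genes Gbp2, Gbp3, Gbp4, Gbp5, Gbp6, Gbp7, Gbp8 and Gbp9. They were taken by symbol from the gene rows of the deposited single-cell matrices, with no cutoff on their values. The list was chosen with earlier results of these data known. The 8 genes took 9 of 28692 rows, because the symbol Gbp6 stands on 2 rows. The cells came from tumours that the mouse B lymphoma line A20, itself of BALB/c origin, formed under the skin of BALB/c mice. Each mouse had been inoculated with 1000000 A20 cells, and dosing began at tumours of about 300 mm3. One arm was given TAK-981 at 7.5 mg/kg and the other its vehicle of 20% hydroxy-beta-cyclodextrin (HPbCD), both into a vein, and tumours were taken 8 h later. TAK-981 blocks SUMO activation, the first step by which cells link the small modifier SUMO to target proteins. Dead cells were removed before loading, so what was measured is the RNA of cells that survived mechanical dispersal through a 70 µm filter. The labels do not say how many mice stand behind each library. With 1 library per arm, the arms cannot be compared by a test, and every interval covers counting error only.

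GBPs are large GTPases of the dynamin superfamily. Their genes are known as targets of interferon, which acts through the JAK kinases, STAT2 and IRF9, and through IRF1. The proteins gather on the membranes of vacuoles that hold microbes, and on bacteria in the cytosol, and they help caspase-11 (encoded by Casp4) and other inflammasomes to respond. They work beside a second family of interferon-induced GTPases, the immunity-related GTPases such as Irgm1 and Igtp. In mouse the family sits in a cluster on chromosome 3 with Gbp2, Gbp3, Gbp5 and Gbp7, and a cluster on chromosome 5 with Gbp4, Gbp6, Gbp8 and Gbp9. Gbp2 and Gbp5 are known to carry a lipid (prenyl) tail that anchors them to membranes.

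Sequences before the RefSeq starts of the chromosome 3 members are shown because these genes were read together below. Their promoters are known to bind the factors of the interferon pathway. RefSeq promoter windows (build GRCm38.p6, 250 bases before to 50 bases after a gene's start) were given for 4 of the 8 members, all on chromosome 3 and on the plus strand. The letters searched on both strands were GAAANNGAAA (TTTCNNTTTC on the other strand), the core of the interferon-stimulated response element (ISRE), and TTCNNNGAA, the gamma-activated site (GAS), which reads the same on both strands. No match of one motif overlapped a match of the other. Capitals mark a match. The stretch of Gbp2 is chr3:142620594-142620623, that of Gbp5 chr3:142496759-142496788, that of Gbp7 chr3:142530086-142530335 and that of Gbp3 chr3:142559794-142560025.
Gbp2: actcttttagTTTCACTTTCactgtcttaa
Gbp5: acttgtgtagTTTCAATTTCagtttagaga
Gbp7: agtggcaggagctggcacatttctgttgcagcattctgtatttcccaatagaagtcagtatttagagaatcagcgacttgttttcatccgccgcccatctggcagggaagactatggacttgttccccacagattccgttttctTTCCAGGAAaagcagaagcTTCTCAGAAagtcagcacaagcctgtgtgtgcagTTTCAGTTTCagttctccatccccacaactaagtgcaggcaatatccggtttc
Gbp3: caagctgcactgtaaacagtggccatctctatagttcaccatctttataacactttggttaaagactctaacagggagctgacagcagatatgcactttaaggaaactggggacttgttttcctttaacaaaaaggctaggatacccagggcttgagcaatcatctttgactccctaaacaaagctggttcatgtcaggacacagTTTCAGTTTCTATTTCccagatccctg

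All 4 of these members held the ISRE core, which 3.44% of 32851 RefSeq windows hold. Its first base lay 59 bases before the RefSeq start in Gbp2, 165 in Gbp5 and 53 in Gbp7. Gene starts differ between annotations. In GENCODE M21 the Gbp2 model starts at chr3:142620602, so the Gbp2 match lies inside that model. The Gbp5 model starts there at chr3:142493978, so the whole Gbp5 window lies within that gene's span. Gbp3 held 2 overlapping copies, 45 and 39 bases before the first of its 2 RefSeq starts, and no match in the window of the other start. The GAS letters, present in 8.30% of windows, were found in Gbp5 (245 and 52 bases before the start) and Gbp7 (106 and 87 bases before), and not in the windows of Gbp2 and Gbp3. A match is a description of letters and not a measured binding site.

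The cells were read in 3 classes. T cells held at least 2 unique molecular identifiers (UMIs, each standing for 1 captured RNA molecule) of Cd3d, Cd3e and Cd3g together, the CD3 chains of the T cell receptor. Myeloid cells held at least 5 UMIs of Lyz2, lysozyme. A20 cells held at least 1 UMI of Cd79a, which signals for the B cell receptor, and none of the other genes, so that host B cells could not be told apart from A20 cells. Barcodes with 10% or more of UMIs from mitochondrial genes were left out, 376 of 2396 (15.7%) from the TAK-981 arm and 124 of 2579 (4.81%) from the vehicle arm. The libraries held 37470319 and 57471750 UMIs, and they had 11 barcodes in common. T cells numbered 45 with TAK-981 and 60 with vehicle, with a median of 7156 and 9068 UMIs per cell. Myeloid cells numbered 39 and 44 (8287 and 10636.5 UMIs), and A20 cells 1754 and 2191 (16195 and 22309 UMIs). A further marker was common in each class: Trac was found in 66.7% and 75% of T cells, Cd14 in 92.3% and 93.2% of myeloid cells and Jchain in 96.0% and 97.9% of A20 cells. Jchain was also found in 13.3% and 25% of T cells and in 20.5% and 13.6% of myeloid cells, so the classes were not free of each other's transcripts. Cd14 was found in 0 of 45 T cells with TAK-981, which allows a share of up to 6.67%, and in 1 of 60 with vehicle. Still, 1 T cell of the TAK-981 library held 10 UMIs of a list of monocyte and macrophage markers, 5 of them of Csf1r. Xist, a transcript of female cells, was found in 38 of 45 and 54 of 60 T cells, in 30 of 39 and 39 of 44 myeloid cells, and in 9 of 1754 and 22 of 2191 A20 cells.

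The first comparison asked whether GBP transcripts as a group differed between TAK-981 and vehicle in each class. They were higher with TAK-981 in each of the 3 classes, by more in the host immune cells than in the tumour cells. In T cells the 8 genes summed to 419 UMIs against 178, which is 942 against 206 counts per 1000000 UMIs of the class (CPM). That is a 4.57-fold higher level, a log2 ratio of 2.19 (exact conditional binomial 95% interval 1.93 to 2.45). In myeloid cells 484 UMIs stood against 111, or 1334 against 208 CPM. The ratio was 6.42-fold, 2.68 on the log2 scale (2.38 to 2.99). In A20 cells 2875 UMIs stood against 2473, or 88.6 against 46.7 CPM, a 1.90-fold difference (log2 0.92, 0.85 to 1.00). The interval of A20 cells lay below those of both other classes, and the difference between classes was not tested beyond these intervals. UMIs of 1 cell are not independent, so all such intervals are too narrow.

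Members were also counted one by one, where both libraries together gave at least 10 UMIs. In T cells 7 members were measured so, and 6 of them were at least 2-fold higher and 0 at least 2-fold lower, where 6.32% of 7868 genes were that much higher and 9.42% that much lower. In myeloid cells 6 of 7 were higher and 0 lower, where 10.8% of 6417 genes were higher and 14.3% lower. In A20 cells 6 of 8 were higher and 0 lower, where 3.46% of 12250 genes were higher and 1.5% lower. The median log2 ratio of the measured members was 2.12 in T cells, 2.32 in myeloid cells and 1.17 in A20 cells, beside medians of all genes of -0.04, -0.09 and 0.06. Gbp6 was the member that fell short of 10 UMIs in T cells and myeloid cells. The members short of a 2-fold difference were Gbp3 in T cells, Gbp8 in myeloid cells, and both of these in A20 cells. In the plot of ratios these are the points under the dashed line.

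**Figure D1:**
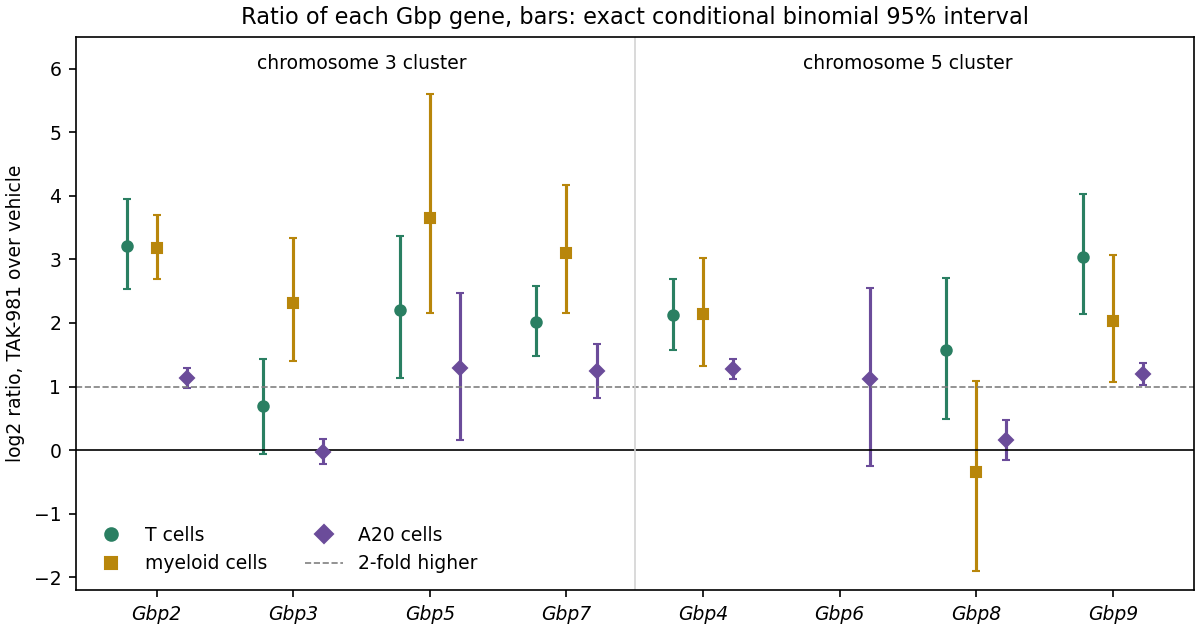
Log2 ratio of TAK-981 over vehicle (y axis) for each GBP gene (x axis) in T cells (circles), myeloid cells (squares) and A20 cells (diamonds), with exact conditional binomial 95% intervals of the counts as bars. The dashed line marks a 2-fold higher level. Gbp2 stands at 3.21, 3.18 and 1.14, while Gbp3 in A20 cells and Gbp8 in myeloid cells lie below 0 with intervals that include it. Gbp6 is drawn for A20 cells, where it reached 10 UMIs.

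Gbp2, which is needed for defence against Toxoplasma in mice and coats its vacuole, had the largest ratio of the chromosome 3 members in T cells. It had 105 UMIs in 21 of 45 T cells of the TAK-981 library and 22 UMIs in 14 of 60 of the vehicle library, or 236 against 25.5 CPM, a 9.26-fold difference (log2 3.21, 2.54 to 3.94). In myeloid cells it was found in 31 of 39 against 9 of 44 cells, at 678 against 74.9 CPM, 9.05-fold (3.18, 2.69 to 3.70). One vehicle myeloid cell held 13 of the 40 vehicle UMIs (32.5%). The myeloid log2 ratio was 4.38 with cells thinned to 4000 UMIs and 4.49 without the 5% of cells richest in GBP UMIs, while that of T cells was 3.54 and 3.07. In A20 cells Gbp2 stood at 23.4 against 10.6 CPM, 2.20-fold (1.14, 0.98 to 1.30). One vehicle A20 cell alone held 80 of the 564 vehicle UMIs (14.2%).

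Gbp5, which promotes assembly of the NLRP3 inflammasome, was higher in both host classes and rested on few UMIs in A20 cells. Its level in T cells was 58.5 CPM (26 UMIs in 11 cells) against 12.8 CPM (11 UMIs in 10 cells), 4.58-fold (2.20, 1.13 to 3.36). In myeloid cells it was 93.7 CPM (34 UMIs in 18 cells) against 7.49 CPM (4 UMIs in 4 cells), 12.5-fold (3.64, 2.16 to 5.60), and the log2 ratio was 2.59 with cells thinned to 4000 UMIs. In A20 cells it had 18 UMIs in 13 of 1754 cells against 12 in 8 of 2191, or 0.554 against 0.226 CPM, 2.45-fold (1.29, 0.16 to 2.48). That log2 ratio was 0.92 without A20 cells that held Xist, and 1.88 without the A20 cell richest in GBP UMIs in each library.

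Gbp7, linked to the oxidative attack on bacteria in macrophages, was higher in all 3 classes. T cells had 198 against 48.7 CPM, 4.06-fold (2.02, 1.48 to 2.59), and 27 of 45 against 20 of 60 cells held a UMI. Myeloid cells had 176 against 20.6 CPM, 8.56-fold (3.10, 2.16 to 4.17), with a UMI in 24 of 39 against 6 of 44 cells. In A20 cells the levels were 3.67 and 1.55 CPM, 2.37-fold (1.24, 0.83 to 1.67). One vehicle A20 cell held 26 of its 82 vehicle UMIs, and without the richest cell of each library the log2 ratio was 1.76.

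Gbp3 departed from its neighbours on chromosome 3. In A20 cells it stood at 10.6 CPM (344 UMIs) in the TAK-981 library and 10.8 CPM (571 UMIs) in the vehicle library, a log2 ratio of -0.02 (-0.22 to 0.17), or a fold of 0.984 with an interval of 0.858 to 1.13, and 0.21 on the log2 scale with cells thinned to 4000 UMIs. In T cells it had 67.5 against 41.7 CPM, 1.62-fold (0.69, -0.06 to 1.43), an interval that reaches 0. In myeloid cells it had 121 against 24.4 CPM, 4.98-fold (2.32, 1.40 to 3.33), with a UMI in 20 of 39 against 10 of 44 cells. Gbp3 and Gbp2 both carried the ISRE core and not the GAS letters in the windows above. Their log2 ratios were 0.69 and 3.21 in T cells, 2.32 and 3.18 in myeloid cells and -0.02 and 1.14 in A20 cells. The T cell ratio of Gbp3 was 1.65 without the 5% of cells richest in GBP UMIs. A relation of the letters to these ratios was not tested.

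Of the chromosome 5 members, Gbp4, reported to restrain the interferon regulator IRF7, and Gbp9 were higher in every class. Gbp4 had 207 against 47.5 CPM in T cells, 4.35-fold (2.12, 1.58 to 2.69). It had 141 against 31.8 CPM in myeloid cells, 4.41-fold (2.14, 1.33 to 3.03). In A20 cells it was found in 23.6% against 16.7% of cells, at 24.7 against 10.2 CPM, 2.42-fold (1.28, 1.12 to 1.44). Its ratios in T cells and myeloid cells were thus closer to each other than to that in A20 cells. Gbp9 had 124 against 15.1 CPM in T cells, 8.21-fold (3.04, 2.15 to 4.03), with a UMI in 26 of 45 against 10 of 60 cells. In myeloid cells it had 99.2 against 24.4 CPM, 4.07-fold (2.03, 1.08 to 3.07), and a log2 ratio of 1.08 with cells thinned to 4000 UMIs. In A20 cells it had 20.8 against 9.11 CPM, 2.29-fold (1.19, 1.02 to 1.36).

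Gbp8 was higher in T cells, where 20 UMIs in 13 cells stood against 13 in 12 cells, 45.0 against 15.1 CPM (log2 1.58, 0.50 to 2.71). In A20 cells it had 4.44 against 3.98 CPM (0.16, -0.16 to 0.47). In myeloid cells it had 7 UMIs in 6 cells against 13 in 8 cells, 19.3 against 24.4 CPM (-0.34, -1.90 to 1.10). Of the 13 vehicle UMIs 5 came from 1 cell, and without the myeloid cell richest in GBP UMIs in each library the log2 ratio was 0.13. Neither direction of Gbp8 in myeloid cells is therefore readable at this depth.

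Gbp6 was hardly detected. One of its rows (ENSMUSG00000079362) had no UMI in any of the classes. The other (ENSMUSG00000104713) had 3 UMIs against 0 in T cells, 2 against 0 in myeloid cells, and 12 against 9 in A20 cells, where the log2 ratio of 1.12 had an interval of -0.25 to 2.55. The row at 0 corresponds in the GENCODE M21 annotation, which may differ from the one the authors used, to a locus named Gm43302 that shares 81.6% of its exonic bases with Gbp6 and Gbp10. Gbp8, Gbp9 and Gbp4 share bases of their first exons (13.7%, 31.1% and 57.0% of them), which matters for a kit that reads 5' ends. Reads of these chromosome 5 genes could have been split or lost in the authors' counting, while the chromosome 3 members share no exonic base with each other in that annotation. Near-identical sequence between family members can have the same effect and was not tested.

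**Figure D2:**
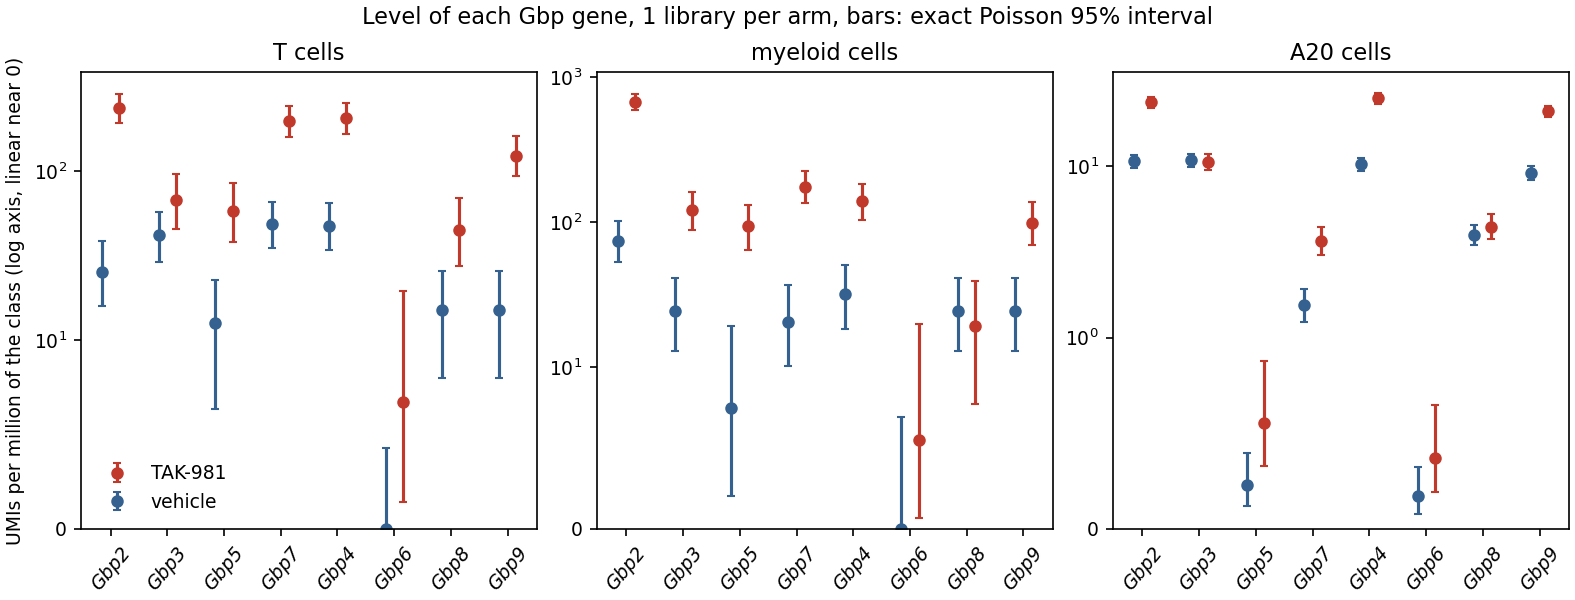
Level of each GBP gene (x axis) in CPM of its class (y axis, logarithmic and linear near 0, with its own range in each panel) in the TAK-981 library (red) and the vehicle library (blue), with exact Poisson 95% intervals. Gbp2 reaches 678 in myeloid cells of the TAK-981 library against 74.9 in the vehicle library. In A20 cells Gbp3 and Gbp8 overlap between the libraries.

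The 2 family rows that are no members, Gbp2b and Gbp10, were read for comparison. Gbp2b, beside Gbp2 on chromosome 3, had 21 UMIs against 2 in T cells (log2 4.35, 2.32 to 7.49), 23 against 9 in myeloid cells (1.91, 0.75 to 3.21) and 127 against 67 in A20 cells (1.63, 1.19 to 2.08). Gbp10, on chromosome 5, had 24 against 14 in T cells (1.73, 0.72 to 2.80) and 79 against 75 in A20 cells (0.78, 0.31 to 1.26), and 4 against 1 in myeloid cells.

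Read across classes, each gene's levels can be set in order, as shares of the RNA of a class. For the summed genes the order was myeloid cells of the TAK-981 library (1334 CPM), T cells of the TAK-981 library (942), then myeloid (208) and T cells (206) of the vehicle library, whose intervals overlap, and last A20 cells with TAK-981 (88.6) and vehicle (46.7). A20 cells of the TAK-981 library thus stayed below the vehicle level of both host classes. For Gbp2 the order was the same at the top, but T cells of the vehicle library (25.5) and A20 cells of the TAK-981 library (23.4) did not differ beyond their intervals. For Gbp4 and Gbp9, T cells with TAK-981 (207 and 124 CPM) stood above myeloid cells with TAK-981 (141 and 99.2), with overlapping intervals. A lower share of a class's RNA can come from fewer GBP molecules or from more RNA per cell.

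In single cells the GBP transcripts were spread over most host cells of the TAK-981 library and over a smaller share of A20 cells. To compare cells at equal depth each cell was thinned at random to 4000 UMIs, and no cell was shallower. The median T cell then held 2 GBP UMIs with TAK-981 and 0 with vehicle, with highest values of 48 and 13. At least 1 was found in 71.1% (exact binomial 95% interval 55.7 to 83.6%) against 46.7% (33.7 to 60%) of T cells, and before thinning in 91.1% against 78.3%. The median myeloid cell held 4 against 0, with highest values of 25 and 6. At least 1 was found in 82.1% (66.5 to 92.5%) against 36.4% (22.4 to 52.2%) of myeloid cells, and before thinning in 89.7% against 50%. These intervals treat the cells of 1 library as independent, so whether they overlap does not compare the arms or the classes. Free RNA in droplets can place UMIs in cells that do not express a gene, and no class known to lack all GBPs was at hand to measure that.

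A20 cells held a median of 0 in both libraries, and 22.9% (20.97 to 24.96%) against 13.1% (11.8 to 14.6%) held at least 1 GBP UMI after thinning. Before thinning the shares were 50.4% and 46.8%, at median depths of 16195 and 22309 UMIs. Cells with at least 3 different members were rare among A20 cells, 1.54% against 0.183%, and common among host cells of the TAK-981 library, at 40% against 6.67% of T cells and 43.6% against 2.27% of myeloid cells. By gene, thinned shares of A20 cells were 6.90% against 2.46% for Gbp2, 8.21% against 3.51% for Gbp4 and 7.70% against 3.74% for Gbp9. For Gbp3 they were 3.93% (3.07 to 4.95%) and 3.61% (2.86 to 4.47%). In the plot of GBP UMIs per cell the host curves part over their whole length and the A20 curves lie close to the axis.

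**Figure D3:**
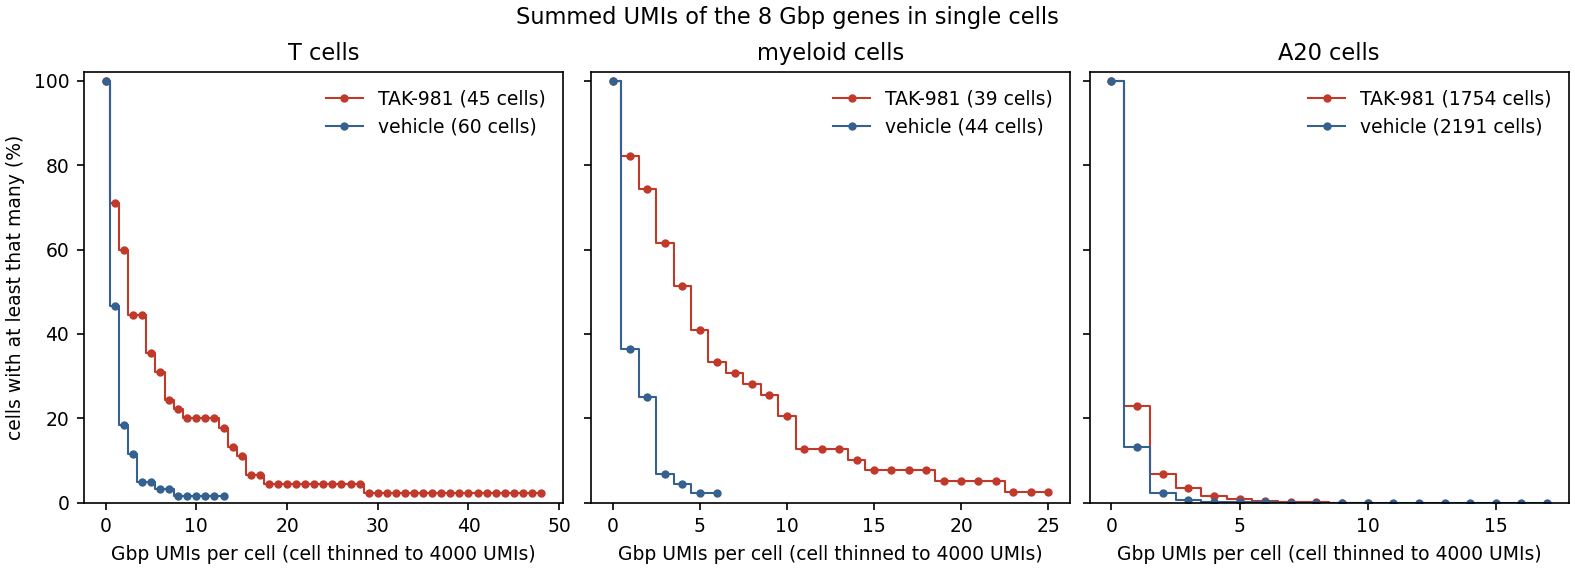
Share of cells (y axis, percent) that hold at least a given number of UMIs of the 8 GBP genes (x axis), each cell thinned to 4000 UMIs, in the TAK-981 library (red) and the vehicle library (blue). At 1 UMI the T cell curves stand at 71.1% and 46.7%, the myeloid curves at 82.1% and 36.4% and the A20 curves at 22.9% and 13.1%.

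GBP UMIs were spread unevenly over the cells of every class. The 5% of cells with the most GBP UMIs carried 44.9% of them with TAK-981 and 40.4% with vehicle in A20 cells, 30.1% and 29.8% in T cells, and 20.7% and 50.5% in myeloid cells. The richest single cell carried 14.8% of the T cell sum with TAK-981 and 23.4% of the myeloid sum with vehicle. To see whether members were found in the same cells, A20 cells were divided by whether a Gbp2 UMI was present after thinning, which gave 121 and 1633 cells with TAK-981 and 54 and 2137 with vehicle. Their median depths were 15921 and 16228 UMIs with TAK-981, and 26974 and 22202 with vehicle. UMIs of another member were present after thinning in 50.4% (41.2 to 59.6%) of cells with Gbp2 and 17.2% (15.4 to 19.1%) without it in the TAK-981 library. In the vehicle library the shares were 29.6% (18.0 to 43.6%) and 10.9% (9.66 to 12.4%). Members were thus found together in both libraries, without TAK-981 as well as with it. Xist was present in 0 of the 121 and 1 of the 54 cells with Gbp2.

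Gbp3, which did not differ between the arms in A20 cells, did differ between these cells. With all UMIs counted it stood at 43.7 CPM in cells with Gbp2 and 8.19 CPM in cells without it in the TAK-981 library, 5.34-fold. In the vehicle library it stood at 46.8 and 9.80 CPM, 4.77-fold. For Gbp7 the ratios were 15.0-fold and 32.1-fold, the latter 10.3-fold without the vehicle cell that held 26 of its 38 UMIs. They were for Gbp4 4.58-fold and 5.16-fold, and for Gbp9 3.01-fold and 3.17-fold. Among the genes of the pathway, Irf1, a transcription factor that binds ISRE letters, was 3.81-fold and 4.08-fold higher in cells with Gbp2. The receptor chain Ifnar2 (1.12-fold and 1.14-fold) and the kinase Jak1 (1.01-fold and 0.89-fold) were near 1. Other pathway genes differed between the libraries. The receptor chain Ifnar1 was at 0.80-fold and 1.37-fold, and Ifngr1 at 0.93-fold and 1.39-fold (log2 interval of the latter 0.12 to 0.80). Socs1 was at 2.82-fold and 0.96-fold. The cells were chosen by one member of the family, so these values describe which transcripts were found together, and the arms are not compared through them.

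**Figure D4:**
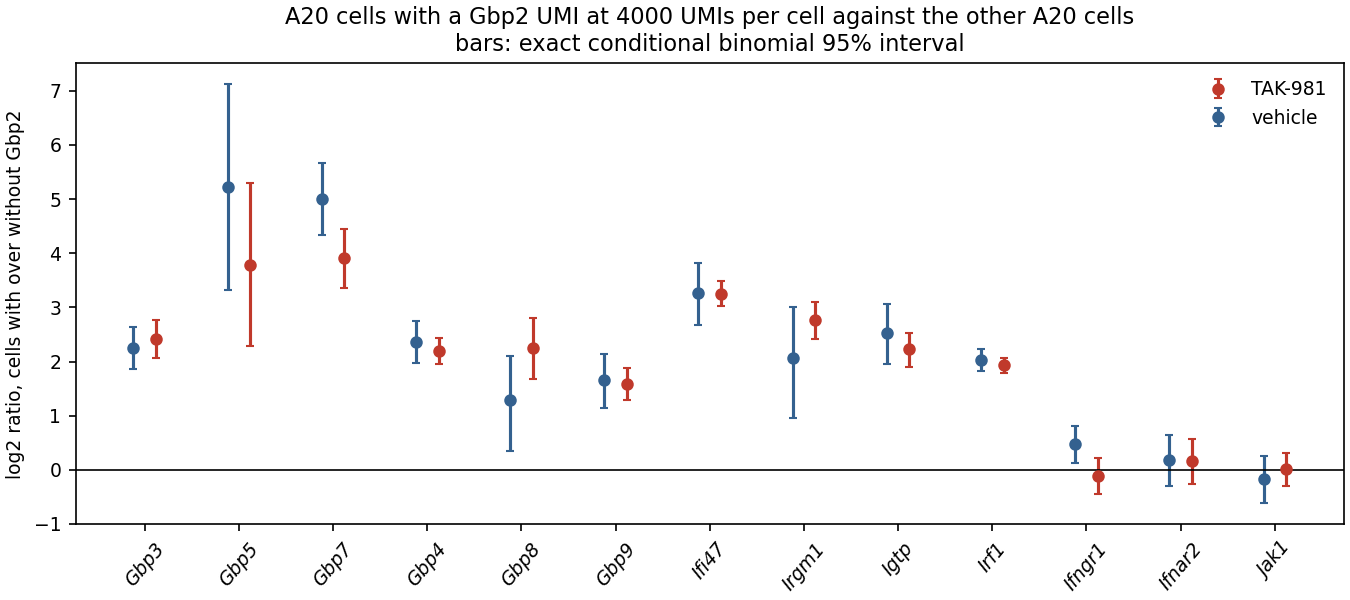
Log2 ratio (y axis) of the level of each gene (x axis) in A20 cells with a Gbp2 UMI after thinning over that in A20 cells without one, in the TAK-981 library (red) and the vehicle library (blue), with exact conditional binomial 95% intervals. Gbp3 lies at 2.42 and 2.25, while Ifnar2 and Jak1 lie near 0 in both libraries. Ifngr1 lies at -0.11 and 0.47.

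T cells were also read by CD8, the co-receptor of cytotoxic T cells. A UMI of Cd8a or Cd8b1 was present in 22 of 45 (48.9%) against 37 of 60 (61.7%) T cells, at median depths of 7156 and 9068 UMIs, while the level of these genes was 497 against 492 CPM and Cd4 was present in 33.3% of both. Ccr7, a gene of naive and central memory cells, was present in 46.7% against 70% of T cells. Summed GBP levels were 711 against 194 CPM in T cells with a CD8 UMI, a log2 ratio of 1.87 (1.50 to 2.25). In T cells without one they were 1143 against 226 CPM, 2.34 (1.97 to 2.73). Gbp2 was higher in both, by 6.54-fold and 12.2-fold, and Gbp9 by 7.07-fold and 10.6-fold. Gbp5 had 2 UMIs against 6 in cells with a CD8 UMI, too few to read, and 24 against 5 in cells without. Transcripts of the B cell and A20 list, at 5 or more UMIs of Cd79a, Cd79b, Jchain and Mzb1, were found in 5 of 45 and 13 of 60 T cells and in 2 of 39 and 2 of 44 myeloid cells. Neutrophil markers summed to 77 UMIs in 21 of 39 myeloid cells of the TAK-981 library and 26 UMIs in 18 of 44 of the vehicle library, with Retnlg at 0 in both. The part of this neutrophil signal in the myeloid ratios was not tested.

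The genes that carry the interferon signal to GBP promoters were at lower ratios, with medians of 0.58, 0.68 and 0.48 on the log2 scale in T, myeloid and A20 cells. Of the 17 listed, 5 of 15 measured were at least 2-fold higher in T cells, 6 of 15 in myeloid cells and 3 of 14 in A20 cells, beside 6.32%, 10.8% and 3.46% of all genes, and 0 were 2-fold lower in any class. Stat2 and Irf9, subunits of the factor that binds the ISRE, were at 3.69-, 6.55- and 2.07-fold and at 2.56-, 1.60- and 3.44-fold in T, myeloid and A20 cells. Stat2 in T cells rested on 19 UMIs against 10 (log2 1.88, 0.71 to 3.15). Irf9 in myeloid cells had 38 UMIs against 35, and its log2 interval (-0.03 to 1.38) includes 0. Irf1 was at 1.86-fold in myeloid cells and 1.94-fold in A20 cells. In T cells Irf1 was at 1.08-fold, with a log2 interval (-0.38 to 0.60) that includes 0. Irf2, a related factor, was 2.64-, 3.27- and 1.23-fold higher, and Socs1, a feedback inhibitor of the JAK kinases, 3.79-, 3.25- and 1.83-fold. Batf2, a factor of activated macrophages, had 16 UMIs against 1 in myeloid cells and 0 in T cells and A20 cells of both libraries.

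No receptor chain passed 2-fold in either direction in any class. Ifnar1 was at 0.901-, 0.650- and 1.54-fold, Ifnar2 at 0.934-, 1.08- and 0.853-fold and Ifngr1 at 1.57-, 0.754- and 1.05-fold in T, myeloid and A20 cells. Ifng, the gene of interferon gamma, had 11 UMIs against 30 in T cells, or 24.7 against 34.8 CPM, and 0 in myeloid cells. Ifnb1 was not detected in any class of either library, which allows up to 3 UMIs per class sum.

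The partner GTPases followed the GBPs. Of 11 listed, 9 are in the files, and all that were measured were at least 2-fold higher, 7 of 7 in T cells, 7 of 7 in myeloid cells and 8 of 8 in A20 cells, beside the same 6.32%, 10.8% and 3.46% of all genes. Irgm1, a regulator of the family and of autophagy, was 19.4-, 7.16- and 5.51-fold higher in T, myeloid and A20 cells, and Igtp 3.84-, 10.4- and 2.86-fold. The T cell ratio of Irgm1 rested on 40 UMIs against 4 (log2 4.28, 2.81 to 6.22). Ifi47 was 4.79-, 13.9- and 6.19-fold higher. Mx1, an antiviral GTPase of the dynamin superfamily, had 20 UMIs in 14 T cells against 0. It had 144 UMIs against 2 in myeloid cells (log2 6.73, 4.85 to 9.79) and 133 against 1 in A20 cells (7.76, 5.26 to 13.1). The medians of the list, 2.63, 3.39 and 1.76 on the log2 scale, lay above those of the GBPs in all 3 classes, a difference that was not tested. Tgtp1 and Tgtp2 are near-identical copies whose reads could be split.

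Inflammasome genes that act with GBPs were mixed. In T cells 4 of 7 measured were at least 2-fold higher, in myeloid cells 3 of 8 with 1 lower, and in A20 cells 2 of 7, beside 6.32%, 10.8% (14.3% lower) and 3.46% of all genes. Il1b is one of those counted in T cells and in A20 cells, and its UMIs there came almost all from 1 cell. Zbp1, a sensor of nucleic acids, was 7.27-, 5.62- and 3.74-fold higher, and Casp4 6.30-, 5.42- and 1.90-fold. The T cell ratio of Casp4 rested on 13 UMIs against 4 (log2 2.66, 0.96 to 4.73). Casp1 was 3.57-fold higher in myeloid cells, 0.998-fold in A20 cells and 1.80-fold in T cells, where its log2 interval (-0.36 to 2.05) includes 0. Gsdmd, whose product forms the pores of pyroptosis, had 13 UMIs against 8 in T cells, 3.15-fold (log2 1.66, 0.28 to 3.13). Il1b, the cytokine that caspase-1 matures, was lower in myeloid cells, at 669 UMIs in 32 of 39 cells against 2226 in 42 of 44, 0.442-fold. In T cells its 60 UMIs in the TAK-981 library came from 1 cell, against 0 in the vehicle library. In A20 cells 11 of its 13 UMIs came from 1 cell. Nlrp3, Aim2, Pycard and Gsdmd were between 0.623- and 1.21-fold in myeloid cells.

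Genes whose products act on GBP proteins were not higher by 2-fold. None of the 10 ubiquitin-like conjugation genes (such as Atg5 and Gabarapl2, which help to place GBPs on vacuoles) was 2-fold higher in any class, and 2 of 10 were at least 2-fold lower in myeloid cells, Atg16l1 with 2 UMIs against 8 (log2 -1.44, -4.72 to 0.88) and Gabarapl1 with 9 against 29 (-1.13, -2.39 to -0.01). Of the 5 genes for prenylation and its later steps, 0 were 2-fold higher in any class, and 2 of 5 measured were at least 2-fold lower in T cells. Rce1 had 8 UMIs against 33 there (log2 -1.09, -2.41 to 0.05) and Icmt 2 against 11 (-1.50, -4.72 to 0.69), and both intervals include 0. These counts stand beside the 9.42% and 14.3% of all genes that were 2-fold lower in T cells and myeloid cells.

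Genes whose pattern was most like that of the summed GBPs were sought among 11052 genes with at least 50 UMIs, by the root-mean-square difference of centred log2(CPM + 1) profiles over the 6 class-by-library sums. The closest were Tgtp2 (0.302), Samd9l (0.307), Xaf1 (0.310), 9930111J21Rik2 (0.322) and Parp14 (0.386). Tgtp2 stood at 74.2 against 11.6 CPM in T cells, 138 against 13.1 in myeloid cells and 5.58 against 1.57 in A20 cells. The 6 points share 2 libraries, so this likeness is a description.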

How the data were processed

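Single-cell RNA was measured in 1 library per arm with the 10x Genomics Chromium 5' kit, per the labels' protocols. The deposited matrices hold UMI counts per gene and barcode, whole numbers that are not normalized, per the file headers. Cell Ranger 2.1.1 and Seurat 2 are named, without a role, in the submitters' processing notes. Which genome build and gene annotation were used is not given in the sources used here. Of 28692 gene rows, 28339 matched GENCODE M21 by ID. No barcode had fewer than 4670 UMIs with TAK-981 or 5965 with vehicle, so the deposited barcodes are a selection. No step against doublets was taken here.

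Counts were summed per class and library, scaled to the class total (CPM) and compared as log2 ratios with exact conditional binomial intervals, in Python 3.11.15 with scipy 1.17.1, numpy 2.4.6, matplotlib 3.10.9 and pandas 2.3.3. Levels carry exact Poisson and shares of cells exact binomial (Clopper-Pearson) intervals, all at 95%, and where no cell held a UMI the limit given is 3 cells of the total. Genes with under 10 UMIs in both libraries together were not counted. The ratio and its interval were tested on simulated counts with known fold changes. Those counts were drawn independently, so the test does not cover UMIs gathered in few cells. The thinning (run with seed 1) was checked on random counts only for reaching its set depth without exceeding the counts present. No p-value was computed. One gene of the pathway lists enters the counts and is not reported here by itself. The genes, the pathway and marker lists and the class rules were chosen with earlier results of these data known, and all 8 members are named in every class. The division of A20 cells by Gbp2, that of T cells by CD8, and the cells singled out were chosen after values had been seen. Alternatives changed the mitochondrial limit, the class rules, the scaling, the depth, the filter on low counts and the cells kept.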

Additional observations from a re-analysis of the deposited data

Results flagged for a closer look

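Gbp3 and Gbp8 had log2 ratios that differed between classes, and their negative values had intervals that include 0. These differences were not tested. Gbp3 stood at 0.69 in T cells, 2.32 in myeloid cells and -0.024 in A20 cells, where the interval of myeloid cells (1.40 to 3.33) and that of A20 cells (-0.22 to 0.17) do not overlap. Gbp8 stood at 1.58 in T cells, -0.34 in myeloid cells and 0.16 in A20 cells, with 20 UMIs in the myeloid cells of both libraries together.

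GBP transcripts also differed in barcodes outside the 3 classes. In the 182 and 160 kept cells that met no class rule, the 8 genes summed to 102.8 against 33.7 CPM, a log2 ratio of 1.61 (1.21 to 2.03). Of these cells 173 and 150 held a UMI of the B cell and A20 list. The T cell list was found in 28 and 29 of them, and the monocyte and macrophage list in 14 and 22. The part of host transcripts in this ratio was not tested. In the 376 and 124 barcodes with a high mitochondrial share they summed to 91.5 against 50.8 CPM, 0.85 (0.40 to 1.32), close to the A20 class, and 375 and 123 of these barcodes held a UMI of that list.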

How the results depend on the processing

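The summed log2 ratio ranged over the alternatives from 2.04 to 2.44 in T cells, 2.64 to 3.24 in myeloid cells and 0.81 to 1.08 in A20 cells. The values that left the counting interval were 3.02 in myeloid cells with each cell weighted the same, 3.24 in myeloid cells and 0.81 in A20 cells without the 5% of cells richest in GBP UMIs, and 1.08 in A20 cells thinned to 4000 UMIs. The cause was not tested. The count of members at least 2-fold higher was 6 to 7 in T cells and in myeloid cells and 4 to 6 in A20 cells, with 4 of 6 measured after thinning. The 7 arose only with the filter lowered to 1 UMI, where Gbp6 entered on 3 UMIs against 0 in T cells and 2 against 0 in myeloid cells. Without the richest 5% of T cells the count stayed at 6, but Gbp8 (0.83) left it and Gbp3 (1.65) entered. Of 184 alternative values of the 18 member ratios past 2-fold, 184 stayed above 0 and 5 fell short of 2-fold: Gbp8 in T cells (0.83) and Gbp6 in A20 cells (0.49) without the richest 5% of cells, Gbp6 in A20 cells under stricter class rules (0.89) and without the richest cell (1.00), and Gbp5 in A20 cells without cells holding Xist (0.92). Gbp3 in T cells ranged from 0.17 to 1.65. Besides the values given above, log2 ratios moved by over 1.5 times in fold for Gbp2 in T cells (3.81) and Gbp5 in A20 cells (1.88) with each cell weighted the same, for Gbp7 in A20 cells under stricter class rules (1.84), and, without the richest 5% of cells, for Gbp4 (2.85) and Gbp7 (3.82) in myeloid cells and Gbp5 (2.44) and Gbp7 (2.34) in A20 cells. The ratios of Gbp3 and Gbp8 in A20 cells and of Gbp8 in myeloid cells took both signs. Median-of-ratios scaling moved all log2 ratios by 0.04, 0.09 and -0.06 in T, myeloid and A20 cells. The alternatives without the richest 5% of cells, without Xist cells and with Gbp2b and Gbp10 in the sum were added after the data were seen. No paired analysis was possible because each arm has 1 library. With 39 to 60 host cells per library, members under 10 UMIs cannot be read.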

Other observations

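Of the 10 genes with the largest ratio between A20 cells with and without Gbp2 in each library, 6 (60%) were in both lists: the serpins Serpina3f, Serpina3g and Serpina3i, the chemokine gene Cxcl10, and the GTPases Tgtp2 and Ifi47. Serpina3f was 16.7-fold higher in such cells of the TAK-981 library and 35.6-fold in those of the vehicle library, and Cxcl10 13.5-fold and 13.2-fold. The list of the TAK-981 library also held Cfap53, at its head with 25.7-fold, Iigp1, Ifit2 and Ifit3b, and that of the vehicle library Tg, Bglap3, 9930111J21Rik2 and Tmem140. The overlap was not tested. These genes were named after their values were seen.

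One vehicle A20 cell held 148 GBP UMIs, 5.98% of its class, at a depth of 29262 UMIs. It had 80 UMIs of Gbp2, 26 of Gbp7, 37 of Tap1 (a peptide transporter of antigen presentation) and 2 of Cd79a, and no UMI of the T cell, monocyte or dendritic cell lists. The A20 cell with the most GBP UMIs in the TAK-981 library held 73, of which 44 were Gbp2.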
